A study of Mus musculus with 8 samples.

Results

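The 39 genes described here encode the glutathione transferases, the glutathione peroxidases and the peroxiredoxins of the mouse. They were taken by name: every protein-coding gene whose symbol was *Gsta*, *Gstk*, *Gstm*, *Gsto*, *Gstp*, *Gstt*, *Gstz*, *Mgst*, *Gpx* or *Prdx* followed by a number, which gave 39 of the 49585 genes in the count table, in 10 families, with no measured value used and pseudogenes left out. RNA-seq was performed on homogenized whole brains of newborn female B × C F1 mice, the offspring of a C57BL/6J mother (B) and a CAST/EiJ father (C). The 4 control brains came from mothers that drank water with 0 ppm CdCl2 and the 4 exposed brains from mothers that drank water with 50 ppm CdCl2, from before mating until birth. Pups were collected within a day of birth (postnatal day 1), and each came from a different litter, so a brain is an independent replicate (n = 4 per dose). The comparison asks whether maternal Cd exposure changed the level of these genes in the newborn brain.

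Glutathione transferases join glutathione to reactive, fat-soluble molecules so that these can be removed from the cell, and the microsomal Mgst enzymes do so in membranes. Glutathione peroxidases and peroxiredoxins reduce hydrogen peroxide and lipid peroxides to water and alcohols. Most of the peroxidases do so with electrons from glutathione, and most peroxiredoxins with electrons from thioredoxin. In the brain, mu class transferases such as Gstm1 and the peroxiredoxin Prdx6 are known mainly from astrocytes, Prdx2 mainly from neurons, and Gpx4 as the enzyme that keeps membrane lipids from peroxidation.

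The Gpx family is shown first in sequence, because its members divide by the amino acid that reacts with peroxide. In 4 of them that residue is selenocysteine, written in the messenger as the codon TGA, which elsewhere means stop, and making such a protein depends on selenium. The stretches below were read from the GENCODE transcripts of GRCm38, 39 coding bases each, 5′ to 3′ on the strand of the gene, with that codon in capitals. They were found by one search: codons for asparagine, valine, alanine, serine and any residue, then the reactive codon.
Gpx1, chr9:108339433-108339471, plus strand, exon 1: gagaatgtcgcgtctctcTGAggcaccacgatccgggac
Gpx2, chr12:76795238-76795276, minus strand, exon 1: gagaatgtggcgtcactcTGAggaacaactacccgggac
Gpx3, chr11:54907238-54907276, plus strand, exon 2: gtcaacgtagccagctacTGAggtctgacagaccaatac
Gpx4, chr10:80054719-80054757, plus strand, exon 3: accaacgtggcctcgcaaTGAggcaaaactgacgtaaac
Gpx6, chr13:21313759-21313797, plus strand, exon 2: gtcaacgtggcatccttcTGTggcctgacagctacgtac
Gpx7, chr4:108403412-108403450, minus strand, exon 2: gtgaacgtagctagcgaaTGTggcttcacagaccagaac
Gpx8, chr13:113045643-113045681, minus strand, exon 2: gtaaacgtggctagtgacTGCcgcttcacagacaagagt

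*Gpx1*, *Gpx2*, *Gpx3* and *Gpx4* held TGA there, and each had 1 selenocysteine in the annotation. *Gpx6*, *Gpx7* and *Gpx8* held a cysteine codon and had 0. *Gpx5* was not found by this search, so no stretch is shown for it.

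The pi class is shown because its main pair shares long stretches of sequence. The coding sequences of *Gstp1* and *Gstp2* were 98.1% identical, with 12 differing bases in 630 and an identical run of 300. The 60 coding bases below, from exon 5 of each gene on the minus strand, hold 5 of the differing bases, in capitals.
Gstp1, chr19:4036694-4036753: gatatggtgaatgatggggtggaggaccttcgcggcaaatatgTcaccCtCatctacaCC
Gstp2, chr19:4040988-4041047: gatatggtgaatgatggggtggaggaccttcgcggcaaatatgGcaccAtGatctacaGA

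Of the 100-base windows in the transcripts of *Gstp2*, 46.9% were also present in transcripts of *Gstp1* or of a pi pseudogene, and of those in *Gstp1* 25.1% were present elsewhere. In the alpha class, 80.6% of the windows of *Gsta1* and 28.4% of those of *Gsta2* were shared, with each other or with *Gm3776* and *Gm10639*, and the coding sequences of the pair were 98.0% identical. *Gpx4* shared 25.2% of its windows with 2 pseudogenes. *Gstm1* shared only 5.9%, although the 7 mu genes lie side by side within 149 kb of chromosome 3 (107895821 to 108044894). The counts of *Gstp1*, *Gstp2*, *Gsta1*, *Gsta2* and *Gpx4* are therefore less certain than the others, since the treatment of shared reads is not given in the sources used here.

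The libraries held 22916434 to 30708087 counted reads, and the level that 3 reads stand for was 0.0980 to 0.132 CPM (counts over the library total after TMM scaling), a floor that covers counting error only. The neuronal markers summed to between 2856 and 3616 CPM in all 8 brains, with 9 of the 10 on that list detected, in keeping with brain tissue. The remaining marker, *Tubb3*, singled out after its values were seen, was listed at 0 in every library although newborn neurons use it. A listed 0 is therefore not read here as absence of a transcript. Between the doses, 10 of the 10 tested hindbrain and spinal cord genes were higher at 50 ppm with an unadjusted p under 0.05, where 3.75% of all genes passed in either direction, and 3 of the 10 had an adjusted p under 0.05 in the edgeR fit. Their sums were 0.341, 3.35, 45.2 and 54.7 CPM in controls and 176, 76.7, 49.0 and 71.4 CPM in exposed brains. Control replicates 1 and 2 stood near 0, whereas control replicates 3 and 4 stood near exposed replicate 3, and 2 of the 12 on that list (*Hoxa3* and *Hoxa4*) were at 0 throughout. Of 10 forebrain genes, 6 were lower by the same unadjusted threshold, and 0 by the adjusted one. These lists were chosen with earlier results of these data known. *Hoxb8*, *Dlx1* and *Sp9* on them were among the differentially expressed genes that the authors reported. The counts are therefore not independent evidence of a difference between the doses. The authors describe the *Hox* result as altered gene expression. Whether regional content or expression within cells differed was not tested, nor was its part in the values that follow. In whole tissue, fewer cells of a type and less RNA per cell cannot be told apart.

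In the newborn brain the peroxiredoxins took more of the counted reads than the other 9 families together, 729 of 1218 CPM in the mean of the controls. Per kilobase of annotated exons, *Prdx2* had the highest level, at 129 CPM per kilobase as the mean of 8 brains, followed by *Mgst3* at 44.0, *Gstm1* at 43.1, *Prdx5* at 40.8 and *Gpx1* at 39.7. *Prdx2* exceeded the next gene 2.93-fold (SD 0.258 over the 8 brains), whereas the genes that followed it lay close together. The top 10 were completed by *Prdx1*, *Gpx4*, *Prdx3*, *Gstm5* and *Gsto1*. The same 10 genes led, in another order with *Prdx5* next after *Prdx2*, when the length of the principal transcript was used. That choice of length, made after the data were seen, moved the level of 15 of the 29 well-counted genes by over 1.5-fold, most for *Gstz1* (7.99 CPM per kilobase of all exons and 24.5 of the principal transcript). *Prdx2*, a cytosolic peroxiredoxin, alone supplied 32.1% of the summed CPM of the 39 genes.

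**Figure D1:**
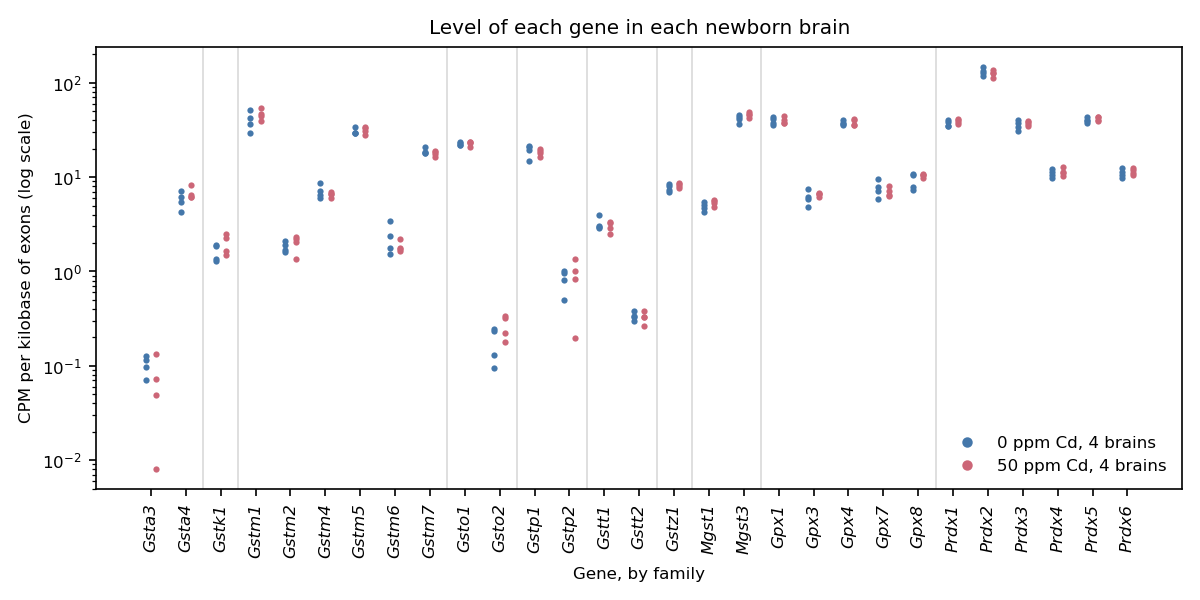
CPM per kilobase of annotated exons (vertical axis, log scale) for the 29 well-counted genes (10 or more counts in 4 or more libraries), ordered by family, with 1 point per brain (blue, 0 ppm; red, 50 ppm). *Prdx2* stands at the top near 129 CPM per kilobase, *Gsta3* at the bottom near 0.0844, and the points of the doses overlap for each gene.

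At the other end, 6 of the 39 genes were too rare to be tested. *Gpx5*, *Gsta1* and *Gstt4* were listed at 0 in all 8 libraries, and *Gsta2*, *Gstm3* and *Gstp3* had between 1 and 3 reads in all libraries together. A further 4 were tested on few reads: *Gpx2*, the peroxidase known from the gut lining, *Gpx6*, known from olfactory tissue, *Gstt3*, and *Mgst2*, which makes leukotriene C4. Their mean levels were 0.0415 to 0.127 CPM, at or under what 3 reads stand for. The other 29 reached 10 counts in 4 or more libraries and are called well counted here.

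For none of the 33 tested genes was a difference between 0 ppm and 50 ppm detected. In the edgeR quasi-likelihood fit across 23113 genes, 0 of 33 had an unadjusted p under 0.05, where 3.75% of all genes did, and 0 had a Benjamini-Hochberg adjusted p under 0.05, where 0.0173% of all genes did. The doses did not separate completely for any of them (0 of 33), as they did for 2.09% of all genes. The smallest unadjusted p was 0.114, for *Gpx2*, and the smallest adjusted p was 0.999. DESeq2 also gave 0 with an unadjusted p under 0.05, where 649 of all 23113 genes had one. By limma-voom 2 of the 33 passed, *Gpx2* and *Gsta3*, where 1130 of all 23113 genes did. Neither had an adjusted p under 0.05. The log2 fold change was above 0 in 21 and below 0 in 12, that is above 0 in 63.6% of these genes against 49.0% of all genes tested, with a median of 0.04 against -0.003.

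How large a difference these data would still allow can be read from the 95% intervals. For 14 of the 29 well-counted genes the interval lay within 1.25-fold in either direction, its outermost bounds being 0.822-fold and 1.24-fold. These were all 6 peroxiredoxins, *Gpx1*, *Gpx4*, *Gstm5*, *Gstm7*, *Gsto1*, *Gstp1*, *Gstz1* and *Mgst3*. For 24 of the 29 it lay within 1.5-fold, where 77.0% of the 16532 well-counted genes of the whole table did. The 5 that were not bounded so closely were *Gsta3*, *Gstk1*, *Gstm6*, *Gsto2* and *Gstp2*, and for 2 of these, *Gsta3* and *Gsto2*, both counted at under 1 CPM, a 2-fold difference remained within the interval. The median standard error was 0.12 on the log2 scale against 0.11 for all well-counted genes.

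**Figure D2:**
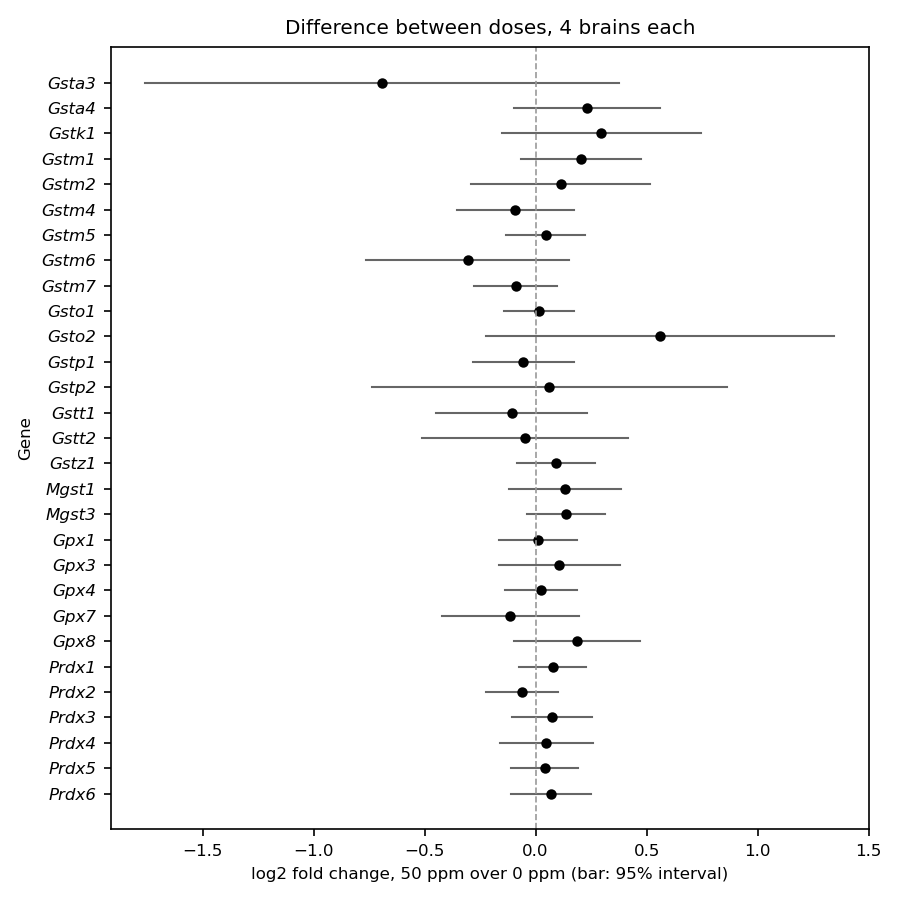
Log2 fold change of 50 ppm over 0 ppm (horizontal axis; points) with its 95% interval (bars) for the 29 well-counted genes by family, from 4 brains per dose. All 29 bars cross 0, and the widest are those of *Gsta3*, *Gstp2* and *Gsto2*.

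All 6 peroxiredoxins had intervals within 1.25-fold. *Prdx2* (ENSMUSG00000005161, chromosome 8, 84969587 to 84974834) had 411, 358, 448 and 391 CPM in controls and 392, 417, 385 and 346 CPM in exposed brains. Both the highest and the second lowest of the 8 values were in controls, and the doses overlapped over most of their range. The log2 fold change was -0.06 (SE 0.08, unadjusted p = 0.430, adjusted p = 0.999 in the edgeR fit), with an interval from -0.22 to 0.10. Erythroid markers, given here because red blood cells are known to be rich in Prdx2, summed to 128 to 312 CPM at 0 ppm and 101 to 404 CPM at 50 ppm, and their part in the *Prdx2* values was not tested. The other 5 peroxiredoxins had log2 fold changes from 0.04 to 0.08: *Prdx1* (cytosolic) 0.08, *Prdx3* (mitochondrial) 0.07, *Prdx6* 0.07, *Prdx4* (endoplasmic reticulum) 0.05 and *Prdx5* 0.04. Summed over the family, the level was 729 ± 59.2 CPM in controls and 727 ± 31.8 CPM in exposed brains (mean ± SD, n = 4), a ratio of 0.997. Exons of *Prdx5* and *Prdx2* overlapped genes on the other strand over 19.1% and 11.5% of their length, as did those of *Gstm5* and *Gstz1* over 13.9% and 12.2%, and the strand setting of the counting is not given in the sources used here.

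Among the glutathione peroxidases, *Gpx4* was counted most often (ENSMUSG00000075706, chromosome 10, 80047166 to 80056439), at 65.2, 62.4, 70.3 and 61.5 CPM in controls and 69.4, 70.7, 61.8 and 61.8 CPM in exposed brains. High and low values occurred at both doses, and the log2 fold change was 0.02 (SE 0.08, unadjusted p = 0.754, adjusted p = 0.999 in the edgeR fit). *Gpx1*, the main cytosolic peroxidase, had 60.01, 50.9, 62.9 and 54.2 CPM in controls and 57.5, 63.7, 53.9 and 54.6 CPM in exposed brains. Neither dose lay above the other, and its log2 fold change was 0.01 with an interval from -0.17 to 0.19. The secreted *Gpx3*, at 8.67 to 13.5 CPM at 0 ppm and 11.1 to 12.3 CPM at 50 ppm, had a log2 fold change of 0.11. Per kilobase of exons, *Gpx3* (6.29 CPM) and the cysteine enzymes of the endoplasmic reticulum, *Gpx8* (9.76 CPM) and *Gpx7* (7.30 CPM), were below *Gpx1* and *Gpx4* (37.9 CPM). *Gpx8* had 7.74 to 11.3 and 10.1 to 11.3 CPM at 0 ppm and 50 ppm (log2 fold change 0.19, interval -0.10 to 0.47), and *Gpx7* had 7.63 to 12.2 and 8.10 to 10.5 CPM (log2 fold change -0.11, interval -0.42 to 0.19). None of the well-counted genes passed the threshold, either with the TGA codon shown above or with a cysteine codon. *Gpx2*, with the most negative log2 fold change of all tested genes of these families (-1.28, SE 0.77), rested on 0.273, 0.149, 0.196 and 0.116 CPM in controls and 0, 0.140, 0.143 and 0 CPM in exposed brains. Its value in 2 exposed brains was 0, its 0 ppm mean of 0.184 CPM was little above the floor of 3 reads, and no fold is drawn from it. Summed Gpx levels were 152 ± 13.7 CPM in controls and 155 ± 10.2 CPM in exposed brains (n = 4 each).

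*Gstm1* had the highest level per kilobase of the mu class genes (ENSMUSG00000058135, chromosome 3, 108012255 to 108017973 on the minus strand) and of all the cytosolic transferases. Its values were 43.7, 54.0, 75.6 and 62.5 CPM in controls and 57.9, 65.8, 68.3 and 79.9 CPM in exposed brains. The lowest 2 brains were controls and the highest was exposed, but the second highest of the 8 was control replicate 3, and the doses overlapped. The log2 fold change was 0.20 (SE 0.13, unadjusted p = 0.132, adjusted p = 0.999 in the edgeR fit), with an interval from -0.07 to 0.48. Without control replicate 3 it was 0.35 (SE 0.12, unadjusted p = 0.00735, adjusted p = 0.661 in the edgeR fit), and without control replicate 1 or exposed replicate 4 it was 0.08 or 0.12, so that its size rests on single libraries. The 12 astrocyte markers summed to 1516, 1349, 1702 and 1486 CPM in controls and 1747, 1802, 1665 and 1977 CPM in exposed brains. Of these markers 7 of 12 were higher at 50 ppm with an unadjusted p under 0.05 in the edgeR fit, where 3.75% of all genes passed in either direction. By the adjusted threshold 0 passed. DESeq2 and limma-voom gave 6 and 8 at the unadjusted threshold, where 649 and 1130 of all 23113 genes passed, and 0 at the adjusted one. This list too was chosen with earlier results known, and the authors reported the proteins of *Aldoc*, *Slc1a3* and *Ndrg2* on it as more abundant in exposed brains. These counts are therefore not independent evidence of a difference between the doses. Control replicate 3 was the highest control for both *Gstm1* and the astrocyte sum, and exposed replicate 4 the highest brain for both. Control replicate 2 was below control replicate 4 in both, and exposed replicate 1 below exposed replicate 2 in both. Control replicate 1 and exposed replicate 3 did not match in this way. Control replicate 1 had the lowest *Gstm1* of the 8 brains but the second highest astrocyte sum of the controls. Exposed replicate 3 had the second highest *Gstm1* of the exposed brains but their lowest astrocyte sum. The part of astrocyte content in the *Gstm1* values was not tested. At the protein level, the authors reported *Gstm1* as significantly more abundant in exposed brains, in samples from the same pups. Only RNA was examined here, and how the transcript and protein levels of *Gstm1* relate was not tested.

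**Figure D3:**
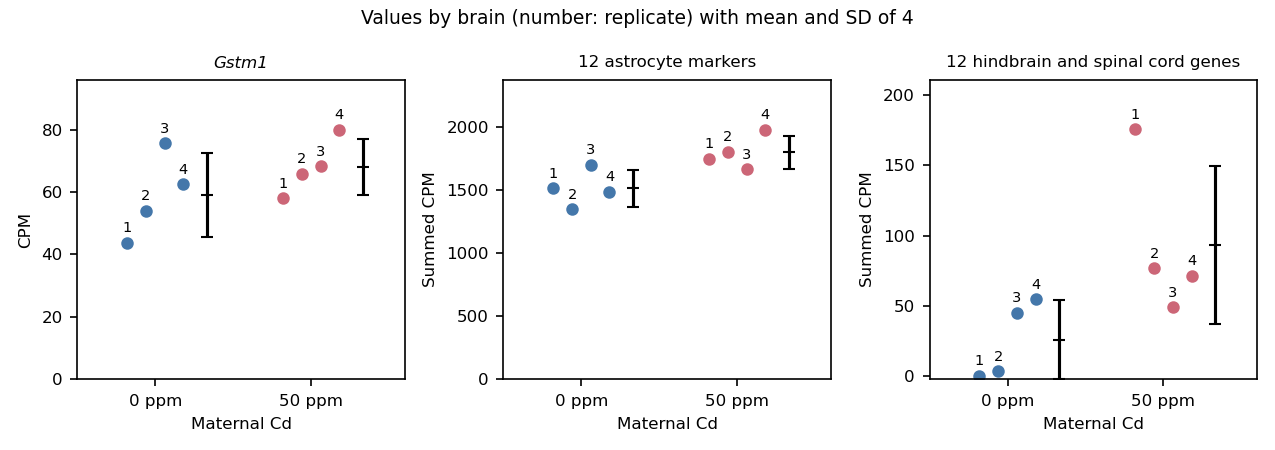
CPM of *Gstm1* (left) and summed CPM of 12 astrocyte markers (middle) and of 12 hindbrain and spinal cord genes (right) by maternal Cd dose, with 1 numbered point per brain and the mean and SD of 4 as the black bar. Control replicate 3 has the highest *Gstm1* and the highest astrocyte sum of the controls (75.6 and 1702 CPM), and exposed replicate 4 the highest of all 8 brains (79.9 and 1977 CPM). Control replicate 1 has the lowest *Gstm1* (43.7 CPM) but not the lowest astrocyte sum (1516 CPM). Exposed replicate 3 has the lowest exposed astrocyte sum (1665 CPM) but not the lowest exposed *Gstm1* (68.3 CPM).

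The other mu genes, which lie in the same cluster, did not share one direction. *Gstm5* (log2 fold change 0.05) and *Gstm2* (0.11) were on the same side as *Gstm1*, and *Gstm4* (-0.09), *Gstm6* (-0.31) and *Gstm7* (-0.09) on the other. *Gstm6* (ENSMUSG00000068762) had 3.04, 3.50, 6.76 and 4.76 CPM in controls and 3.51, 3.48, 4.35 and 3.26 CPM in exposed brains. The 2 highest of these 8 values belonged to control replicates 3 and 4 and the lowest to control replicate 1. Its log2 fold change did not pass the threshold (SE 0.22, unadjusted p = 0.174, adjusted p = 0.999 in the edgeR fit), and without control replicate 3 it was -0.04. The summed mu class level was 148 ± 21.2 CPM in controls and 155 ± 13.1 CPM in exposed brains (n = 4 each).

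Of the microsomal transferases, *Mgst3* (ENSMUSG00000026688, chromosome 1, 167371966 to 167393841) stood highest. It had 47.9, 40.3, 50.3 and 45.5 CPM in controls and 51.1, 54.4, 46.3 and 50.4 CPM in exposed brains. Exposed replicates 1, 2 and 4 were above all 4 controls and exposed replicate 3 was not. The log2 fold change was 0.14 (SE 0.08, unadjusted p = 0.123, adjusted p = 0.999 in the edgeR fit), and the interval from -0.04 to 0.31 allowed at most 1.24-fold. *Mgst1*, found in the endoplasmic reticulum and outer mitochondrial membrane, had 9.82 ± 1.04 and 10.8 ± 0.807 CPM (n = 4 each; log2 fold change 0.13, interval -0.12 to 0.39).

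The pi class gene *Gstp1* (ENSMUSG00000060803) had 32.1, 22.8, 32.7 and 29.8 CPM in controls and 29.0, 30.7, 27.9 and 25.4 CPM in exposed brains. The lowest and the highest value were both in controls (log2 fold change -0.05, SE 0.11, unadjusted p = 0.620, adjusted p = 0.999 in the edgeR fit). *Gstp2*, whose transcripts share stretches with *Gstp1* as shown above, was counted 33, 15, 28 and 28 times at 0 ppm and 32, 43, 26 and 5 times at 50 ppm. Exposed replicates 2 and 4 held the highest and the lowest of these counts, and the interval of its log2 fold change ran from -0.73 to 0.86.

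Among the alpha transferases, *Gsta4*, which acts on the lipid peroxidation product 4-hydroxynonenal, had the highest level per kilobase (6.25 CPM; ENSMUSG00000032348, chromosome 9). It had 6.90, 8.93, 7.77 and 5.46 CPM in controls and 8.14, 7.76, 7.89 and 10.5 CPM in exposed brains. Exposed replicate 4 was the highest brain and the other exposed brains lay within the control range. The log2 fold change was 0.23 (SE 0.16, unadjusted p = 0.154, adjusted p = 0.999 in the edgeR fit). *Gsta3*, with the most negative well-counted log2 fold change (-0.69, SE 0.51, unadjusted p = 0.191, adjusted p = 0.999 in the edgeR fit), had 0.307, 0.558, 0.425 and 0.503 CPM in controls and 0.316, 0.0351, 0.214 and 0.573 CPM in exposed brains. Its highest and its lowest value were both in exposed brains, the lowest below the floor of 3 reads.

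The remaining transferase classes were represented by few genes. *Gsto1*, an omega class enzyme with dehydroascorbate reductase activity (ENSMUSG00000025068), had 48.1, 43.9, 46.1 and 44.5 CPM in controls and 42.1, 48.1, 46.6 and 47.7 CPM in exposed brains, so that the doses covered almost the same range. Its log2 fold change was 0.02 (SE 0.08, unadjusted p = 0.842, adjusted p = 0.999 in the edgeR fit). Its neighbour *Gsto2* had the largest positive well-counted log2 fold change (0.56, SE 0.37, unadjusted p = 0.151, adjusted p = 0.999 in the edgeR fit), on levels of 0.307, 0.223, 0.555 and 0.581 CPM in controls and 0.421, 0.527, 0.785 and 0.750 CPM in exposed brains. Exposed replicates 3 and 4 were above all controls and exposed replicates 1 and 2 were not.

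*Gstz1*, the zeta class enzyme of tyrosine breakdown (ENSMUSG00000021033), had 36.9, 35.8, 41.4 and 43.3 CPM in controls and 44.4, 43.1, 40.7 and 39.4 CPM in exposed brains. Control replicates 1 and 2 were the lowest, and the other controls lay among the exposed brains (log2 fold change 0.09, SE 0.08, unadjusted p = 0.284, adjusted p = 0.999 in the edgeR fit). The kappa class gene *Gstk1* (ENSMUSG00000029864), whose enzyme is found in mitochondria and peroxisomes, had 1.98, 1.90, 2.78 and 2.75 CPM in controls and 2.21, 2.42, 3.64 and 3.31 CPM in exposed brains. Its lowest 2 brains were controls and its highest 2 exposed, with overlap in between (log2 fold change 0.30, SE 0.21, unadjusted p = 0.181, adjusted p = 0.999 in the edgeR fit). The theta class gene *Gstt1* (ENSMUSG00000001663) had 4.54, 4.39, 6.14 and 4.65 CPM in controls and 4.42, 5.02, 3.78 and 5.12 CPM in exposed brains. Control replicate 3 stood above the other 7 brains (log2 fold change -0.11, SE 0.16, unadjusted p = 0.513, adjusted p = 0.999 in the edgeR fit). *Gstt2* was lower, at 1.40 ± 0.136 and 1.35 ± 0.194 CPM (n = 4 each).

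Brains of the same dose differed from each other across many of these genes at a time. Control replicate 3 was the highest of the 4 controls for 20 of the 29 well-counted genes (69.0%), where it was the highest for 26.8% of all 16532 well-counted genes. Control replicate 2 was the lowest control for 15 of the 29 (51.7%, against 27.8% of all). Relative to the other controls, the median deviation of the 29 genes was 0.20 in control replicate 3 and -0.13 in control replicate 2 on the scale of log2(CPM + 0.1). The medians over all well-counted genes were 0.005 and 0.003. Among the exposed brains, replicate 2 was the highest for 13 of the 29 (44.8%, against 25.2% of all) and replicate 4 for 11 (37.9%, against 25.9%). Control replicate 3 was also the deepest library, with 30708087 counted reads, and had the highest astrocyte, oligodendrocyte, neuron, radial glia, meningeal and microglial marker sums of the controls. It had the lowest forebrain and choroid plexus sums of the controls (559 and 480 CPM) and the second highest hindbrain and spinal cord sum (45.2 CPM). Neither depth, cell content nor brain region was tested as a source of its values.

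**Figure D4:**
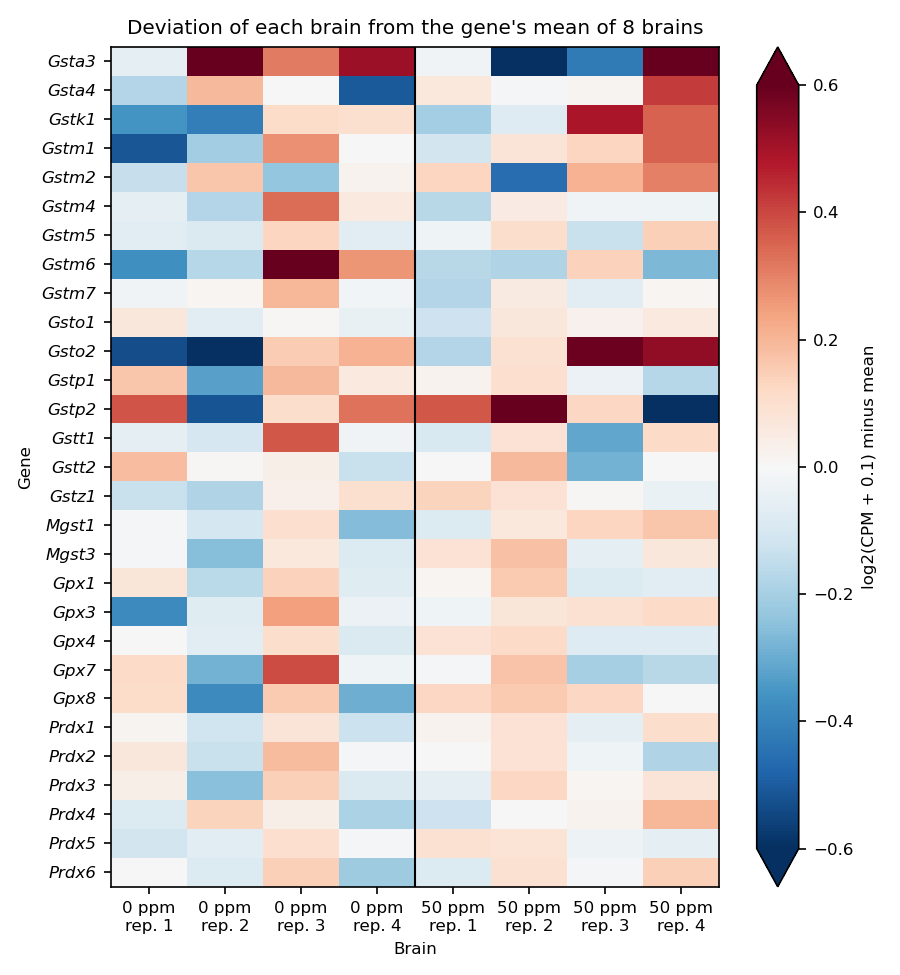
Deviation of each brain (columns) from the mean of the 8 brains for each of the 29 well-counted genes (rows, by family), as log2(CPM + 0.1) minus the mean, with red above and blue below and colours saturating at 0.6. The column of 0 ppm replicate 3 is red for most genes and that of 0 ppm replicate 2 blue for most, whereas no block of genes changes colour at the line between the doses.

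Without control replicate 3, the log2 fold change was above 0 in 26 of the 33 genes in place of 21, and the median was 0.07 in place of 0.04. Over all 8 brains left out in turn, the count above 0 ran from 17, without exposed replicate 2 (median 0.02), to these 26, and it was 19 without control replicate 4 (median 0.02). In the fit without control replicate 3, *Gstm1* was the 1 gene of the 33 with an unadjusted p under 0.05, where 1155 of all 22727 genes had one. Of the 33, 0 had an adjusted p under 0.05 in that fit, while 20 genes of the whole table did, in place of 4. The summed level of all 39 genes was 1215, 1118, 1356 and 1183 CPM in controls and 1219, 1303, 1204 and 1214 CPM in exposed brains. The highest and the lowest of these sums were both in controls, and their means were 1218 ± 100.5 and 1235 ± 45.7 CPM (n = 4 each). By family, the ratio of the 50 ppm to the 0 ppm mean was lowest for Gstt (0.944) and highest for Gstk (1.23), with Mgst at 1.10 and Gsta at 1.15, described without a test.

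The enzymes that serve these families were measured as well. Glutathione is made and recycled by one set of genes, thioredoxin passes electrons to the peroxiredoxins, NADPH feeds both, and a dedicated machinery inserts selenocysteine. Of 65 genes on 6 such lists, all tested, 2 had an unadjusted p under 0.05 (against 3.75% of all genes), both higher at 50 ppm, and 0 had an adjusted p under 0.05 in the edgeR fit. DESeq2 and limma-voom each gave the counts 2 and 0. The median log2 fold change of the 65 was 0.01, against -0.003 over all genes. The 16 genes of glutathione synthesis and recycling ranged from -0.19 to 0.16, 7 above 0 and 9 below, and the most often counted, the amino acid transporter subunit *Slc3a2*, was at -0.03. The 9 genes of selenoprotein synthesis and selenium supply ranged from -0.04 to 0.15, with *Lrp8*, a receptor through which neurons take up the selenium carrier Selenop, at -0.04. The 8 NADPH genes ranged from -0.13 to 0.13, with *Idh1* at -0.02, and the 11 other Gpx-like or Gst-like genes from -0.05 to 0.33, with *Eef1g* at 0.02.

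The 2 genes with an unadjusted p under 0.05 were *Txnip* and *Sod3*. *Txnip*, which binds thioredoxin and is on the list of 14 thioredoxin and sulfiredoxin genes with *Sesn3* (log2 fold change 0.02, the most often counted), had 58.4, 55.2, 66.9 and 68.3 CPM in controls and 63.8, 107, 84.9 and 120 CPM in exposed brains. Exposed replicates 2, 3 and 4 were above all controls and exposed replicate 1 was within their range. Its log2 fold change was 0.59 (SE 0.14, unadjusted p = 0.000465, adjusted p = 0.358 in the edgeR fit), and 19.4% of its exon length overlapped a gene on the other strand. Without exposed replicate 1 its log2 fold change was 0.74 (adjusted p = 0.0175 in the edgeR fit), and with no filter on low counts 0.59 (adjusted p = 0.00358). Whether *Txnip* passed the adjusted threshold thus depended on 1 library and on the filter. The unadjusted threshold was passed in 14 of 14 alternatives, with log2 fold changes from 0.45 to 0.74. *Sod3*, the secreted superoxide dismutase, whose product is hydrogen peroxide, had 4.78, 5.17, 6.30 and 5.42 CPM in controls and 7.26, 6.88, 6.39 and 6.88 CPM in exposed brains. All 4 exposed brains were above all 4 controls, a separation that 2.09% of all genes showed in either direction. Its log2 fold change was 0.34 (SE 0.14, unadjusted p = 0.0248, adjusted p = 0.999 in the edgeR fit), and *Sod1*, the most often counted of the 7 genes of its list, was at 0.03.

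The marker lists of other cell types are given beside these values. Counting genes with an unadjusted p under 0.05, 5 of 12 oligodendrocyte and myelin genes, 3 of 10 microglial, 2 of 9 neuronal, 2 of 9 meningeal and 1 of 10 vascular genes were higher at 50 ppm, 1 of 8 radial glia and dividing cell genes was lower, and 0 of 8 erythroid and 0 of 8 choroid plexus genes had such a p. By the same threshold 3.75% of all genes were counted, and 0 genes of these lists had an adjusted p under 0.05 in the edgeR fit. Sums at 0 ppm and 50 ppm were 300 to 330 and 319 to 366 CPM for oligodendrocytes, 130 to 163 and 152 to 189 CPM for microglia, and 480 to 1250 and 373 to 834 CPM for choroid plexus. They were 823 to 1035 and 944 to 1037 CPM for meninges, 438 to 531 and 498 to 578 CPM for vessels, 906 to 1206 and 962 to 1109 CPM for radial glia, and 559 to 953 and 638 to 774 CPM for forebrain genes.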

How the data were processed

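Poly(A) RNA of 8 newborn brains was sequenced single-end from directional libraries. The authors trimmed reads after FastQC, aligned them with STAR to the C57BL/6J (Ensembl GRCm38) and CAST/EiJ genomes, and deposited raw counts per gene from htseq-count. Tool versions, strand setting and treatment of multi-mapped reads are not given in the sources used here. The C57BL/6J table (49585 genes, 49326 of them matched to a symbol in GENCODE vM21) was used for all members. In the CAST/EiJ table, identifiers could not be paired with names here, so that the members were not analysed in it. A gene entered the fit unless it was at 0 in more than 2/3 of libraries, and 50 ppm was compared with 0 ppm by the quasi-likelihood test of edgeR 4.0.16 with TMM scaling and p-values adjusted by Benjamini-Hochberg across the 23113 genes that entered (R 4.3.3). DESeq2 1.42.0, limma-voom (limma 3.58.1), other filters and scaling, a robust fit and leaving out each library were the alternatives. The limma-voom fit also gave each library a weight by its estimated quality. On simulated counts with 200 of 23113 genes changed by a log2 fold of 1, the edgeR step recovered 86.5% of them in the 50 ppm against 0 ppm design, with 11.3% of its calls false. The changed genes were drawn only from genes above a minimum expected count. The share recovered therefore does not apply to genes on few reads or to smaller changes. Intervals are 95%.

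Each library value is given for the gene of each family with the highest mean CPM and for the 2 largest well-counted log2 fold changes in each direction, and would have been given for any member with an unadjusted p under 0.05. *Gpx1*, *Gpx2*, *Gstp2* and *Gstm1* without a library were added after their values were seen. From the lists, genes with an unadjusted p under 0.05 and the gene with the highest mean CPM were named. Members and lists were chosen with earlier results of these data known. Levels per kilobase used all annotated exons. Replicates agreed less than sampling noise would give (chi-square over degrees of freedom 8.67 to 21.1), and all 8 were kept.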

Additional observations from a re-analysis of the deposited data

Results flagged for a closer look

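In 84 groups of 4 brains (each tested gene, the sum of each family with several members and the sum of all, at each dose), 7 had a highest or lowest value set far apart from the other 3, which chance alone gives in about 1 of 20 groups. Control replicate 3 was such a value for *Gstm5* (43.3 CPM), *Gstm7* (33.6 CPM), *Gstt1* (6.14 CPM) and the summed Gstt level (7.61 CPM). Exposed replicate 4 was one for *Gsta4* (10.5 CPM) and *Mgst2* (0.265 CPM), and exposed replicate 2 for the summed level of all 39 genes (1303 CPM). Each lay above the rest of its group.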

How the results depend on the processing

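Across 14 alternatives per well-counted gene, 435 of 458 values for the members kept their direction and 23 turned, in 11 genes. No member reached an adjusted p under 0.05 in any alternative (lowest 0.661), and 7 of the 458 values had an unadjusted p under 0.05. Over all genes, the share with such a p ran from 649 of 23113 by DESeq2 to 1155 of 22727 without control replicate 3. Of the 7 values, *Gpx2* (-1.55) and *Gsta3* (-1.15) came from limma-voom, where the edgeR fit gave 0 members. The others came from leaving out 1 brain: *Gsta3* (-1.23) and *Mgst2* (-2.18) without exposed replicate 4, *Gsta4* (0.34) without control replicate 2, *Gstm1* (0.35) without control replicate 3 and *Gstm6* (-0.46) without control replicate 1, where it was -0.04 without control replicate 3. The count of members with an unadjusted p under 0.05 ran from 0 to 2 over the left-out brains. Log2 fold changes that turned did so over these ranges: *Gpx1* -0.043 to 0.061, *Gpx4* -0.011 to 0.065, *Gpx6* -0.42 to 0.34, *Gpx7* -0.21 to 0.016, *Gstm4* -0.16 to 0.019, *Gsto1* -0.0054 to 0.060, *Gstp1* -0.16 to 0.0021, *Gstp2* -0.25 to 0.36, *Gstt1* -0.16 to 0.017, *Gstt2* -0.13 to 0.048 and *Prdx4* -0.012 to 0.10. By limma-voom *Gpx6* (0.85) and *Gstp2* (-0.15) also turned. For the values that turned, the cause was not tested.

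Over all genes, the count with an adjusted p under 0.05 was 4, and 18 by DESeq2, 1 by limma-voom, 52 without a filter, 2 with at least 10 counts in 4 libraries, 2 in the CAST/EiJ table and 2 to 20 over the left-out brains. The pathway genes with an unadjusted p under 0.05 numbered 2, and 1 to 4 over the left-out brains. *Prdx2* exceeded the next gene 2.93-fold per kilobase of exons, where that gene was *Mgst3*. Per kilobase of principal transcript the next gene was *Prdx5*, exceeded 3.52-fold. No paired analysis was possible because the labels give no replicate numbers and each pup came from its own litter. The members were not run in the CAST/EiJ table, and the stricter filter left 29 of them. With 4 brains per dose, differences inside the 95% intervals remained compatible with the data, and *Gpx2*, *Gpx6*, *Gstt3* and *Mgst2* were limited by depth.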
